A study of Mus musculus with 36 samples.

Results

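The genes described here encode the nuclear subunits of 4 of the 5 complexes of oxidative phosphorylation, with cytochrome oxidase left out. Members were the protein-coding mouse genes whose symbol begins with Nduf, Sdha, Sdhb, Sdhc, Sdhd, Uqcr or Atp5, with pseudogenes excluded, that had a row in all 6 deposited count tables. There were 79 of them among the 51413 genes shared by the tables. They comprised 36 subunits and 8 assembly factors of complex I, the pair Ndufa4 and Ndufa4l2, 4 subunits and 4 assembly factors of complex II, 8 subunits of complex III, 16 subunits of complex V, and Atp5s, which is named like a subunit of complex V but was kept apart as a member that is not one. The symbol rule took no expression value into account.

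Complex I (NADH dehydrogenase) and complex II (succinate dehydrogenase) feed electrons from NADH and succinate into the respiratory chain of the inner mitochondrial membrane. Complex III passes them to cytochrome c, complexes I and III pump protons across the membrane, and complex V (ATP synthase) uses the proton gradient to make ATP. All of the subunits of complex II and most of those of the other complexes are nuclear encoded, whereas a few core subunits of complexes I, III, IV and V come from mitochondrial DNA (mtDNA), so that transcripts of both genomes are needed. Skeletal muscle and brown fat are known for high contents of these complexes, and mature sperm keep their mitochondria in the midpiece of the tail.

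The study asked how an acute paternal high-fat diet acts on the germline and on the offspring. C57BL/6 wild-type males (C57BL/6N where the study's text names the substrain of wild-type mice) ate a high-fat (HFD) or low-fat (LFD) food during 2 weeks, up to an age of 8 weeks, when their cells were collected. RNA-seq read counts per gene were available for 36 libraries. Cauda epididymal sperm, isolated by swim-up, gave 3 HFD and 3 LFD libraries, and morulae, made by in vitro fertilization of oocytes of unexposed wild-type females with sperm of HFD or LFD males, gave 3 of each. Round spermatids, separated on a density gradient with a purity judged by microscopy, gave 6 libraries, with HFD and LFD males together. Liver, gastrocnemius muscle and epididymal white adipose tissue (eWAT) of chow-fed offspring of HFD fathers gave 6 libraries each. These offspring had been classed as glucose tolerant or intolerant. For these last 4 tables, the diet of the male (round spermatids) or the tolerance of the animal (offspring tissues) could not be tied to a column. They are therefore used as the tissue or cell type alone, as the tables are named, and diet is compared in sperm and morulae. For 3 morula samples one label names the other diet, and the titles and treatment fields were followed. Nothing in the labels states how separate cultures or animals were within a group, so p-values measure the spread between these libraries, which may be partly technical. Whether the 3 tissues came from the same animals could not be told from the columns. Tissue libraries were therefore fitted as independent, and a pairing by animal, if there was one, was not used. In all of these bulk libraries, fewer cells of a type and less RNA per cell cannot be told apart.

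Depth differed widely. Total counts ranged from 369772 to 2749920 in gastrocnemius, 1338149 to 4055537 in eWAT, 2036237 to 2552454 in liver, 20138842 to 31056066 in round spermatids, 2560219 to 4062321 in sperm and 11471251 to 12153141 in morulae. mtDNA-encoded genes took 78.1 to 84.3% of the counts in HFD sperm and 43.5 to 64.7% in LFD sperm, against 1.96 to 2.38% in round spermatids, 22.8 to 26.9% in morulae, 29.8 to 45.5% in gastrocnemius, 21.7 to 27% in liver and 15.1 to 18.2% in eWAT. Levels are therefore given as CPM with a library's total taken over nuclear genes only (nuclear CPM) unless stated otherwise, and intervals between libraries as lowest and highest value. Summed over fixed marker lists, liver markers reached 59367 to 83585 nuclear CPM in liver, muscle markers 71533 to 117034 in gastrocnemius and adipocyte markers 17902 to 35376 in eWAT. Round spermatid and sperm markers summed to 9286 to 11948 in round spermatids, where Sertoli and Leydig cell markers held 20.8 to 27.2 and spermatocyte markers 440 to 546. The sperm libraries held 5030 to 27739 of the same spermatid and sperm markers, and with them 7777 to 44235 of epididymal epithelium markers, nearly all of it Crisp1 and Adam7. No pair of libraries of a group agreed within sampling noise, so every library was counted.

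Promoter sequence is a feature that the symbol rule did not use. RefSeq promoters (GRCm38.p6), from 250 bases before the annotated start to 50 bases after it, were found for 65 of the 79 members. The letters GCGCANGCG, the core of the site of NRF1, a transcription factor known for its sites at respiratory chain genes, stood on either strand in 23 of the 65 (35.4%), against 7.03% of all 27025 genes with a promoter. The YY1 letters AAGATGGCG stood in 8 (12.3%) against 1.64%, and the ETS letters CCGGAAG in 18 (27.7%) against 9.93%. The shares were not matched for base composition, and a match is a run of letters and not a shown site.

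Promoters of 6 members that recur below are printed 5′ to 3′ on the gene's strand, with each NRF1 match in capitals. The c-ring genes Atp5g1 (chr11:96075582-96075881, minus strand), Atp5g2 (chr15:102670998-102671297, minus) and Atp5g3 (chr2:73911277-73911576, minus) are shown because their proteins share the last 78 residues while their transcripts differed between cell types. Uqcrc1 (chr9:108936398-108936697, plus), Ndufa1 (chrX:37191189-37191488, minus) and Ndufa4 (chr6:11907401-11907700, minus) are shown because they were among the members that differed most between round spermatids and sperm or morulae.
Atp5g1: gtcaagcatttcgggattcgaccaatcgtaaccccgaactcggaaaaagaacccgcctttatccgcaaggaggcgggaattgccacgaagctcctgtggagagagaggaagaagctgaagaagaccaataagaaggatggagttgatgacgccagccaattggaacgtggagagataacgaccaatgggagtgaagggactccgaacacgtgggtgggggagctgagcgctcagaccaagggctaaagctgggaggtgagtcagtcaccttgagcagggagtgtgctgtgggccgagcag
Atp5g2: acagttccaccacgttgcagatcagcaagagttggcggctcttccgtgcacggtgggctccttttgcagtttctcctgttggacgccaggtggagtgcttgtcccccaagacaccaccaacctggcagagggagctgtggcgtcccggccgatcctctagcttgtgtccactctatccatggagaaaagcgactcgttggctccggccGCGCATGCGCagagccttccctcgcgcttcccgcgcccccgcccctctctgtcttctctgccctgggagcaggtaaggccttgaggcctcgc
Atp5g3: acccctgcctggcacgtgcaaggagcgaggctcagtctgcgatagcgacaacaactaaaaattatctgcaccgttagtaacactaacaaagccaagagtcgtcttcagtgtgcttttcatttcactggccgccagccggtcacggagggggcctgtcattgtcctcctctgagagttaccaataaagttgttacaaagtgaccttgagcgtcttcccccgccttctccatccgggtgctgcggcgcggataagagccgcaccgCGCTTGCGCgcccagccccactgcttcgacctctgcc
Uqcrc1: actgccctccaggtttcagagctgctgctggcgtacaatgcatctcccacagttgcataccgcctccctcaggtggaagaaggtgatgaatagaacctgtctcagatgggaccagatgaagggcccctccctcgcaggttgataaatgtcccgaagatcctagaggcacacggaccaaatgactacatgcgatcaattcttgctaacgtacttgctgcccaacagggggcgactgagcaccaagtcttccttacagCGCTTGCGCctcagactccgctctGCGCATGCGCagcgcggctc
Ndufa1: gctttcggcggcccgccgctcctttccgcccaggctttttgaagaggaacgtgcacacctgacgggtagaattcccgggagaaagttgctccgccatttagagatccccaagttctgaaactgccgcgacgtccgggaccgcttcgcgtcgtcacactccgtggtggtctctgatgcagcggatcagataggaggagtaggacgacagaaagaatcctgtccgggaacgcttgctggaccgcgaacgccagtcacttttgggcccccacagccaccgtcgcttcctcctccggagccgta
Ndufa4: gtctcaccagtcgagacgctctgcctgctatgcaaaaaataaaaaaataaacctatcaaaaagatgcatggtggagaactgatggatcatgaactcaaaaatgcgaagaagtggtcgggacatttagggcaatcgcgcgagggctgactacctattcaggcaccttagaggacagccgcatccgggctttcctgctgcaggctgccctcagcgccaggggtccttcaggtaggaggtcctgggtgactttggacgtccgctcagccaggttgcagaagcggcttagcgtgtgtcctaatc
Atp5g2 held the NRF1 letters on both strands at -42 and -41 relative to the start. Atp5g3 held them at 13, and Uqcrc1 held them at 6 and, on both strands, at 30 and 31. In Atp5g1, Ndufa1 and Ndufa4 none of the 3 motifs was found in this window.

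Summed over all members, transcripts were most abundant in gastrocnemius among the 3 tissues. The sum was 15898 to 28344 nuclear CPM in gastrocnemius (median 20343), 8169 to 9582 in liver (median 8918) and 7587 to 9420 in eWAT (median 8061), so that liver and eWAT overlapped and gastrocnemius lay above both in every library. These 3 tissues were made with a 3′ tag kit (QuantSeq) and the germline and embryo libraries with a kit that covers the transcript (Nextera), so levels are compared within a kit only. Within the second kit the sum was 5903 to 6393 in morulae, 3727 to 3879 in round spermatids and 1248 to 5164 in sperm. Morulae lay above round spermatids and sperm in every library, whereas the sperm range covered the round spermatids.

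**Figure D1:**
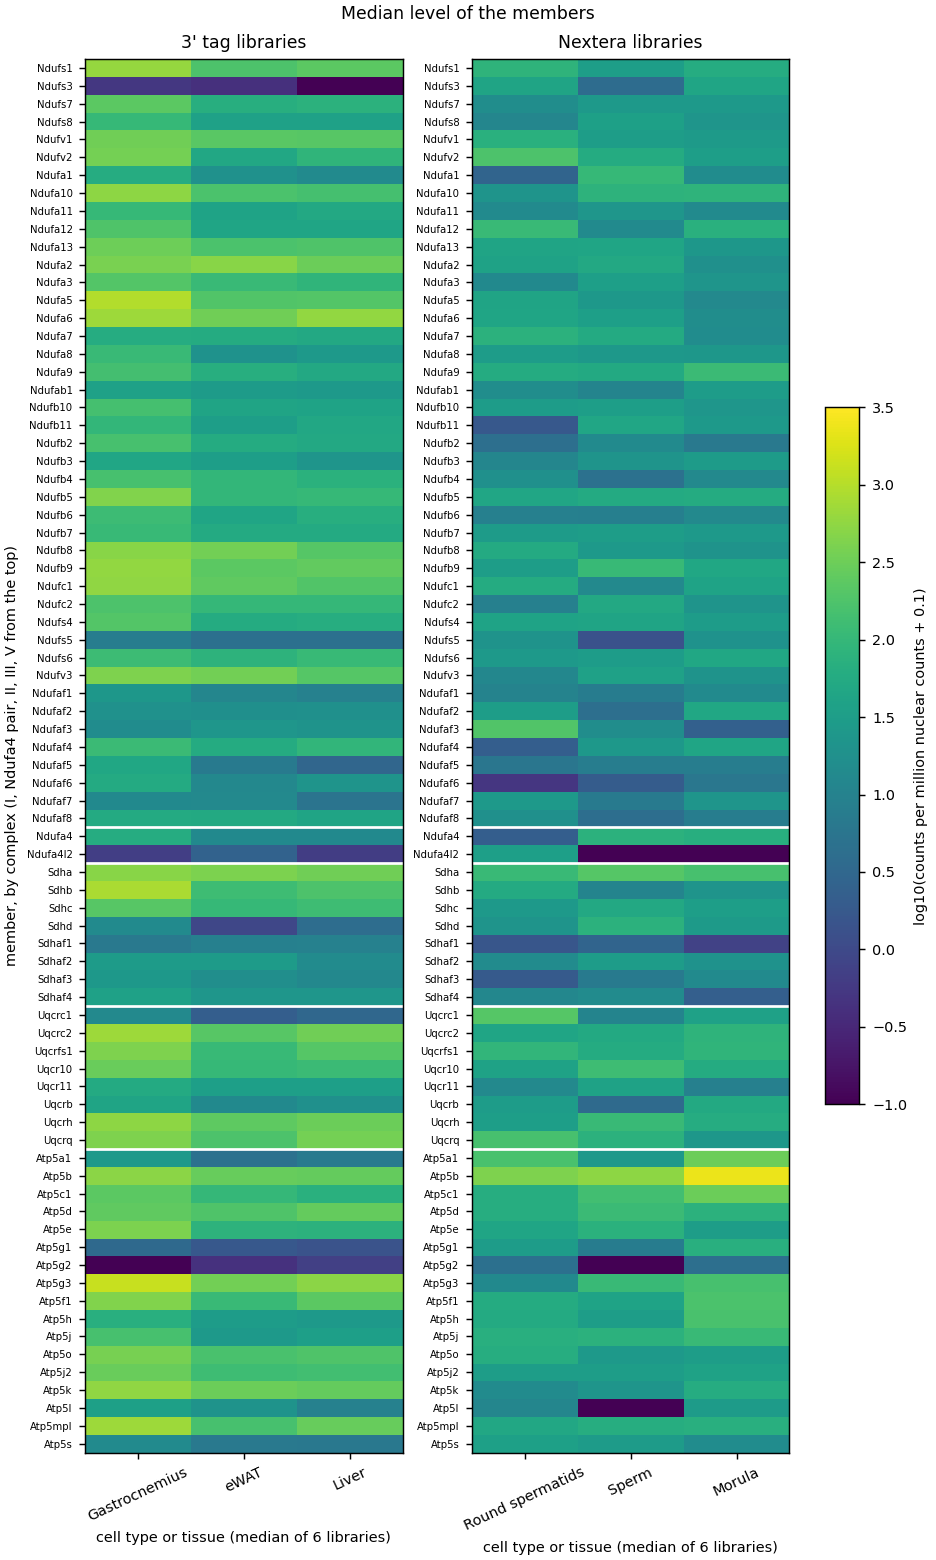
Median level of 78 of the 79 members in each cell type, as log10 of nuclear CPM plus 0.1, in 2 panels by library kit (3′ tag kit on the left, whole-transcript kit on the right). Rows are members ordered by complex and role; Atp5b is the brightest row of morulae, and Ndufaf3 is bright in round spermatids and dark in morulae.

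Among the 3 cell types of the whole-transcript kit, the make-up of this sum by complex stood apart in morulae. Complex V subunits took 64.2 to 66.3% of the members' counts in morulae, against 30.1 to 31.5% in round spermatids and 29.1 to 36.1% in sperm. Complex I subunits took 19 to 21.1% in morulae, against 37 to 37.7% in round spermatids and 34.9 to 38.8% in sperm. One gene, Atp5b (chr10:128083273-128090391), the catalytic beta subunit of the F1 head of ATP synthase, alone held 36.7 to 40.9% of all members' counts in morulae, 10.7 to 11.5% in round spermatids and 10.8 to 18.1% in sperm. Without Atp5b, the other complex V subunits still summed to 1548 to 1760 nuclear CPM in morulae, above the 718 to 750 of round spermatids and the 228 to 1021 of sperm. Complex I summed to 1167 to 1349 in morulae and 1394 to 1455 in round spermatids, which is the reverse order without overlap. Assembly factors of complex I held 7.12 to 7.92% of the members' counts in round spermatids and 2.27 to 2.84% in morulae.

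**Figure D2:**
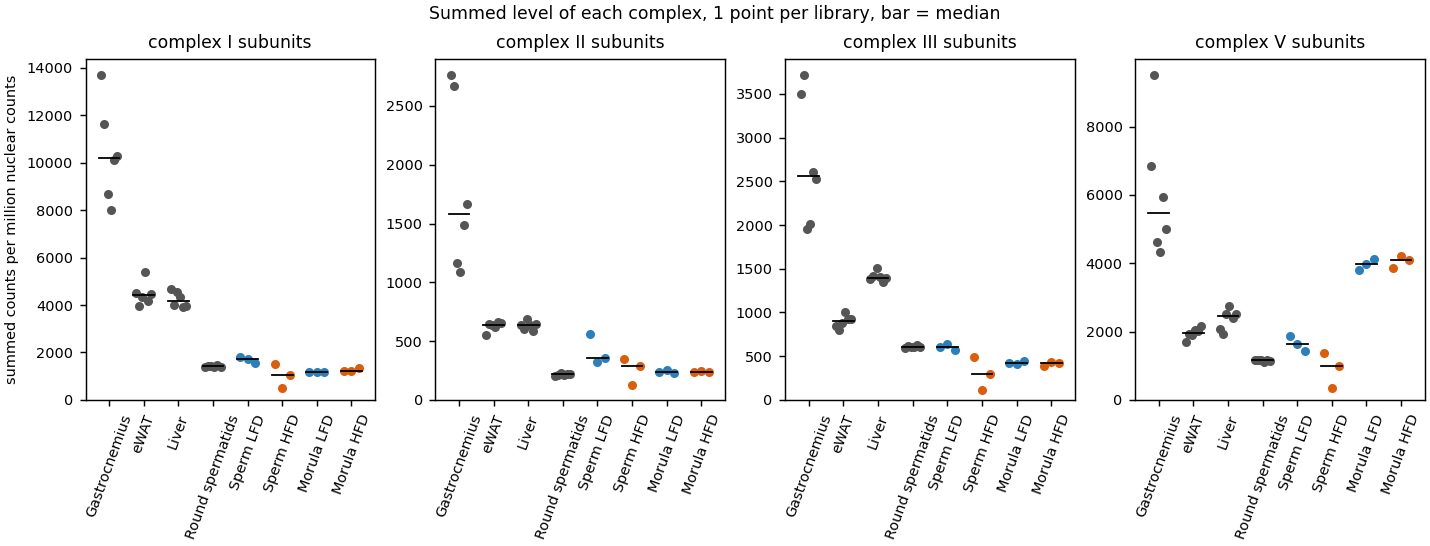
Summed level of the members of each complex, in nuclear CPM, with 1 point per library and a bar at the group median, for the 4 tissue and spermatid groups and the diet groups of sperm and morula. Complex V in morulae sits at 3790 to 4220, above its 1122 to 1175 in round spermatids. The HFD sperm libraries spread over a wider range than the LFD ones in complexes I, III and V, but not in complex II (124 to 348 and 319 to 564).

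Per kilobase of gene model (all exon bases of the gene, merged over its transcripts), the leading members changed between cell types. In morulae the highest medians were Atp5b at 557 nuclear CPM per kb, Atp5c1, the gamma subunit of the F1 stalk, at 162, and Atp5h, a peripheral stalk subunit, at 110. In round spermatids they were the complex I assembly factor Ndufaf3 at 106, Atp5b at 99.9, Ndufv2, a core subunit of the NADH-oxidizing module, at 89 and the complex III subunit Uqcrq at 83.6. In sperm they were the small complex I subunit Ndufa1 at 244, the complex III subunit Uqcr10 at 216 and Atp5b at 131. The order of neighbours depends on the length used: the merged model of Atp5b has 4237 bases and its transcript 1916, those of Ndufaf3 1815 and 1487, so the order of these members is not read further. Of the exon bases of Ndufaf3, 2.64% overlap the gene Impdh2.

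By the fixed rule of a cell type median at least 5 times that of the next cell type of the same kit, 6 members stood apart. Atp5e, the epsilon subunit of F1, had a median of 409 nuclear CPM in gastrocnemius, 81.6 in eWAT and 78.2 in liver. Ndufaf5, a complex I assembly factor, had 47.6 in gastrocnemius, 6.86 in eWAT and 2.92 in liver. Ndufa1 stood out in sperm (102, against 15.4 in morulae and 2.69 in round spermatids). Ndufaf3 (12.3 times the 15.7 of sperm, with 2.29 in morulae) and Uqcrc1, a core protein of complex III (203, against 37.4 in morulae and 10.7 in sperm), stood out in round spermatids. So did Ndufa4l2, with a median of 34.5 in round spermatids and of 0 in sperm and morulae, for which no ratio can be given. No member was without counts in every library of a cell type.

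Gastrocnemius against liver asked which members differ between muscle and liver of the offspring. edgeR's quasi-likelihood test with Benjamini-Hochberg adjustment over all 10851 genes tested called 60 of the 74 tested members higher in gastrocnemius and 1 lower, against 31.4% of all genes higher and 34.9% lower. The median log2 fold change of the members was 0.98, and that of all genes -0.06. All 6 tested core subunits of complex I, 23 of 29 accessory subunits, all 4 subunits of complex II, 6 of 7 of complex III and 13 of 14 of complex V were called higher, whereas of the complex I assembly factors 4 rose and 1, Ndufaf3, fell (by 0.67 on the log2 scale, SE 0.28). Members called lower numbered 3 without the gastrocnemius library of 369772 counts and 0 without that of 935991, alternatives chosen after seeing the data. Untested for low counts were Ndufa4l2, Atp5g1, Atp5g2, Ndufs3 and Uqcrc1.

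The largest rise over liver was that of Ndufaf5 (chr2:140170649-140203689). Its scaled level (CPM after TMM scaling, used for all gene values of tests) was 33.2 to 42.3 in gastrocnemius (median 35.2) and 1.29 to 5.84 in liver (median 2.76), without overlap, a log2 fold change of 3.51 (SE 0.28, adjusted p = 1.42e-10). Atp5j, coupling factor 6 of the peripheral stalk (chr16:84827866-84835625), was at 89.6 to 334 in gastrocnemius (median 130) and 1.85 to 53.5 in liver (median 31.3), a log2 fold change of 2.63 (SE 0.52, adjusted p = 0.00011). Its groups did not overlap, but the liver libraries spread widely. Ndufa4 was at 36.5 to 138 in gastrocnemius (median 52.6) and 0.646 to 26.7 in liver (median 12.5), a log2 fold change of 2.45 (SE 0.48).

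Among the catalytic subunits the size of the rise varied. Within complex II, Sdhb (chr4:140961203-140979193), the iron-sulfur subunit, had 473 to 1128 in gastrocnemius and 116 to 171 in liver (log2 fold change 2.23, SE 0.21), whereas Sdha, the flavoprotein that oxidizes succinate, had 274 to 517 and 291 to 357, overlapping ranges with a log2 fold change of 0.39 (SE 0.16, adjusted p = 0.0317). Both subunits were called higher, by 4.68-fold and 1.31-fold, but Sdha was not called without the gastrocnemius library of 369772 counts (adjusted p = 0.0613) or without that of 935991 (0.0674). In complex I, Ndufs1, an iron-sulfur subunit, rose by 1.28 on the log2 scale (SE 0.14) and Ndufv1, the NADH-binding subunit, by 0.57 (SE 0.19). The Rieske iron-sulfur protein Uqcrfs1 of complex III rose by 1.00 (SE 0.19) and Atp5b by 1.01 (SE 0.21). The delta subunit Atp5d was the tested complex V subunit that did not pass the test (log2 fold change -0.35, SE 0.17, adjusted p = 0.065). It was given here after its value was seen.

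Gastrocnemius against eWAT gave a wider gap. Of the 74 tested members, 70 were called higher in gastrocnemius and 0 lower (0 also at an unadjusted p under 0.05 and by DESeq2), against 26.3% of all genes higher and 41.1% lower, and the members' median log2 fold change was 1.87 against -0.35 for all genes. All tested subunits of complexes II, III and V were called higher, and 34 of 35 of complex I. The median log2 fold change was 2.70 for complex II subunits, 2.11 for complex III, 1.93 for complex V and 1.85 for complex I, and 1.18 for complex I assembly factors. Scaled by library totals in place of TMM, 52 members were called higher and 4 lower, against 11.3% and 67.8% of all genes, with a members' median of 0.92 that lay 2.24 above the median of all genes.

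Sdhd, a membrane anchor of complex II (chr9:50596357-50603812), had 3.32 to 19.4 in gastrocnemius (median 11.9) and 0.335 to 1.37 in eWAT (median 0.446), a log2 fold change of 4.04 (SE 0.45, adjusted p = 5.66e-08). Its level was low in both tissues. Atp5j had 89.6 to 334 against 0 to 21.6 (log2 fold change 3.65, SE 0.53), and Sdhb had 473 to 1128 against 58.9 to 82.1 (log2 fold change 3.43, SE 0.22). Ndufv2 followed at 187 to 320 against 21.2 to 31.4, a log2 fold change of 3.29 (SE 0.18). For each of the 4 genes every gastrocnemius library lay above every eWAT library. Sdha again differed least among the complex II subunits, at 274 to 517 against 200 to 239 (log2 fold change 0.92, SE 0.16).

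eWAT against liver gave the opposite side of the members' ranking under TMM scaling. There 57 of 74 tested members were called lower in eWAT and 0 higher (0 also at an unadjusted p under 0.05 and by DESeq2), against 28.9% of all genes lower and 32.6% higher, with a median log2 fold change of -0.81 against 0.07 for all genes. By library totals, 16 members were called higher and 11 lower, against 64.5% and 13% of all genes, with a members' median of 0.10, since that scaling moved the median of all genes along with the members. Relative to the median of all genes, the members' median was -0.88 with TMM and -0.90 with library totals. Complex III was lower in all 7 tested members, among them Uqcrq (74.4 to 113 in eWAT, 287 to 348 in liver, log2 fold change -1.83, SE 0.16) and Uqcrfs1 (52.9 to 64.8 against 158 to 228, -1.70, SE 0.19). Atp5f1, a peripheral stalk subunit, had 38.4 to 68.4 against 146 to 241 (log2 fold change -1.81, SE 0.21). These 3 genes did not overlap between the tissues. Direction depended on the scaling for Sdha, whose log2 fold change was -0.53 (SE 0.16) with TMM and 0.40 with library totals. In eWAT, erythroid markers summed to 4988 to 17211 and leukocyte markers to 991 to 1630 nuclear CPM, with 404 to 672 and 54.2 to 166 in liver and 634 to 1097 and 56.8 to 124 in gastrocnemius. Their part in the differences was not tested.

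**Figure D3:**
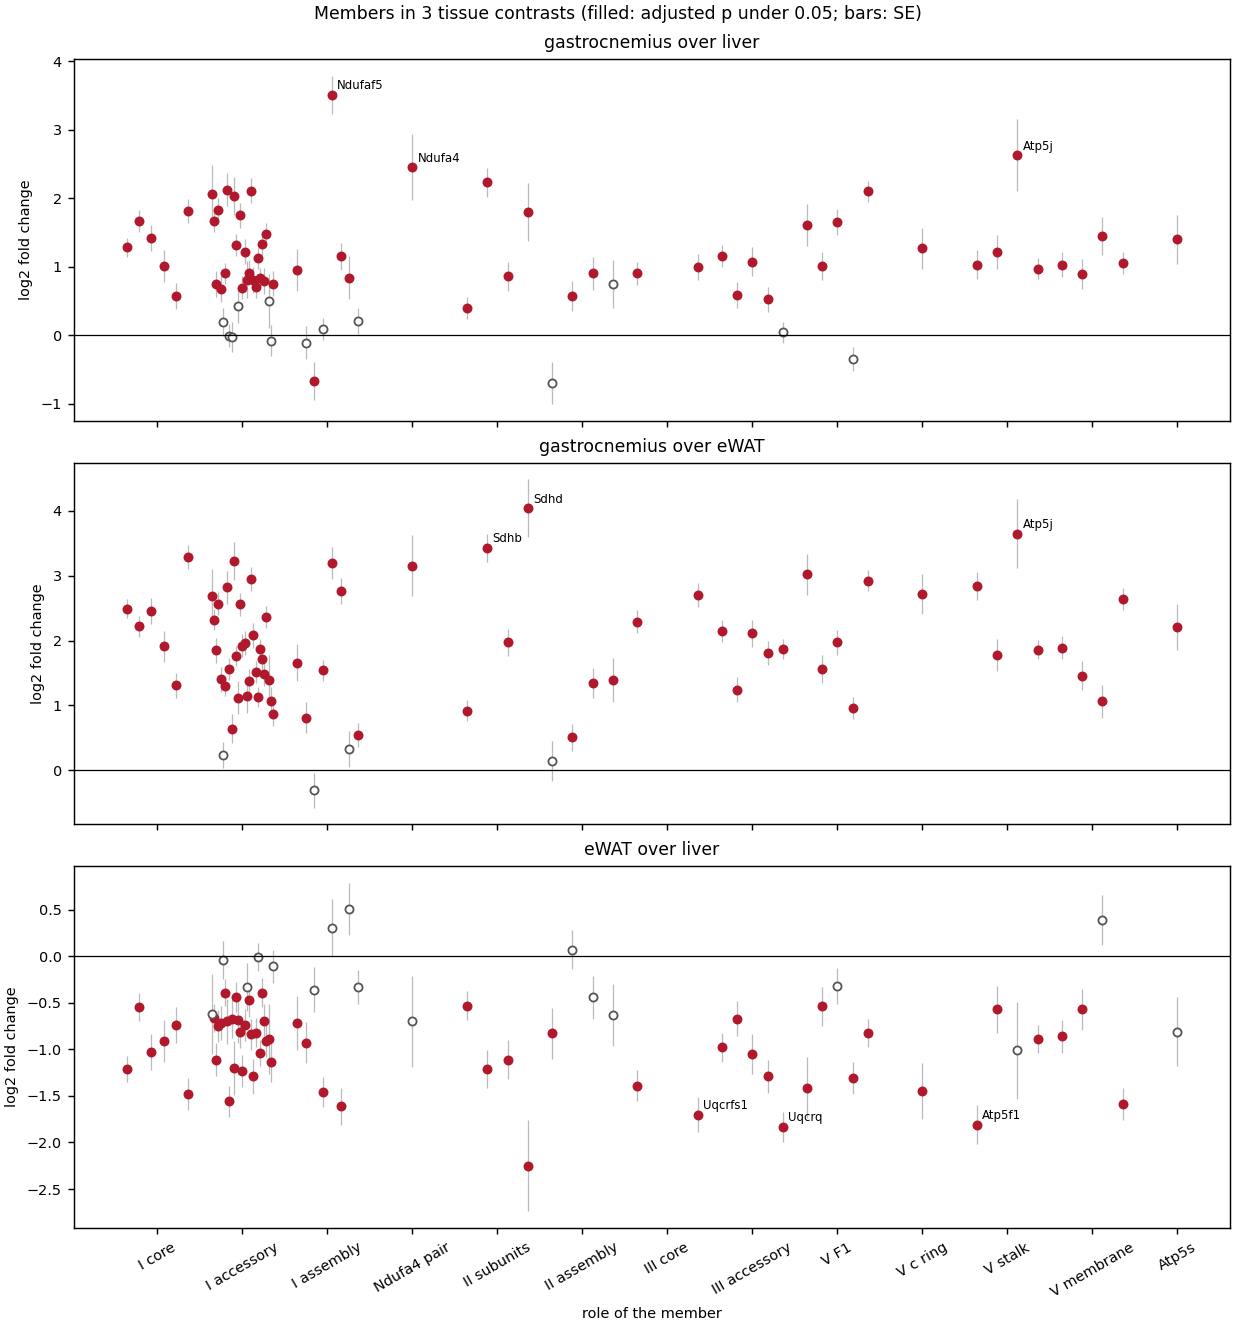
Log2 fold change of each tested member, grouped by role, for gastrocnemius over liver, gastrocnemius over eWAT and eWAT over liver, with bars of 1 standard error and filled points for members past an adjusted p of 0.05. The points lie mostly above 0 in both gastrocnemius comparisons (60 and 70 called higher) and below 0 in eWAT over liver (57 called lower).

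The other genes of the pathway were fixed as lists. Of the 13 tested nuclear cytochrome oxidase genes, 7 were called higher and 2 lower in gastrocnemius over liver (median log2 fold change 0.58), 10 and 2 over eWAT (1.31), and 1 higher and 8 lower in eWAT over liver (-0.58). The muscle forms Cox6a2, Cox7a1 and Cox8b had medians of 1846, 551 and 405 scaled CPM in gastrocnemius and of 0, 3.61 and 0 in liver, whereas the widely expressed forms Cox6a1 and Cox8a had 22.8 and 8.58 in gastrocnemius and 287 and 33 in liver. These 5 genes, all of them called, were chosen after their values were seen. Among the members, 60 of the 61 calls against liver pointed to gastrocnemius. Of the 7 tested protein genes of mtDNA, 5 were called higher in gastrocnemius over liver (median 1.01), 7 over eWAT (2.75) and 6 lower in eWAT over liver (-1.64).

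Counts of some members were low in every library of the 3′ kit, for a cause that was not tested. Ndufs3 had 0 to 4 counts per library in the 3 tissues, Atp5g2 0 to 2, Atp5g1 0 to 9, Uqcrc1 0 to 26 and Ndufa4l2 0 to 14. A copy of at least 98% identity over at least 50 bases, in transcripts of other genes, covered 84.1% of the Ndufs3 transcript and 100% of that of Atp5g2, and 0% of those of Uqcrc1 and Ndufa4l2. Reads that fit a copy equally well may not be counted for the gene, so the counts of the 18 members with more than 20% of their transcript copied are uncertain. Atp5j (33.4%) is one of them.

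Sperm were next set beside round spermatids, the haploid cells from which they form. Of the 79 members, 22 were called higher and 34 lower in sperm, against 23.4% of all 20345 tested genes higher and 51.9% lower. The members' median log2 fold change was -0.36 and that of all genes -1.24. The split depended on the scaling. By library totals 6 members were higher and 49 lower, against 12.3% and 64.3% of all genes. When TMM used nuclear genes only it was 27 and 27, against 27.8% and 45.9%, and the members' median was -0.03. In the LFD sperm libraries alone it was 27 and 31, against 25.6% and 50.4%. Members lay 0.77 to 1.19 above the median of all genes under these settings. By role, complex I subunits gave 10 calls higher and 17 lower, complex II 1 and 1, complex III 3 and 4, and complex V 2 and 7, while 3 of 4 complex II assembly factors were higher and 0 lower.

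Among the members called higher in sperm whose groups did not overlap, Ndufa4, Ndufa1 and Atp5g3 had the highest log2 fold changes. Ndufa4 was first described in complex I and is now placed with cytochrome oxidase. It had 14.5 to 54.5 scaled CPM in sperm (median 34.7) and 1.18 to 1.78 in round spermatids (median 1.43), a log2 fold change of 4.67 (SE 0.25, adjusted p = 7.1e-12). Ndufa1, an X-linked subunit needed for complex I assembly, had 16.4 to 69.1 (median 44.6) against 1.58 to 2.06 (median 1.78), a log2 fold change of 4.58 (SE 0.27). Every sperm library lay above every round spermatid library for both genes.

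The other X-linked member, Ndufb11 (chrX:20615326-20617619), an accessory subunit of the membrane arm, had 0 to 34.4 in sperm (median 21.9) against 0.903 to 1.21, a log2 fold change of 4.21 (SE 0.43). Its groups overlapped, because the HFD library of 3679276 counts was at 0. It was described in sperm after its value was seen. Of the 560 tested other protein-coding genes of the X chromosome, 263 were called higher and 214 lower in sperm over round spermatids (median 0.53). In morulae over round spermatids it was 273 and 233 (median 0.63).

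Among the members called lower in sperm without overlap, Ndufa4l2, Uqcrc1 and Ndufaf3 had the lowest log2 fold changes. Ndufa4l2 (chr10:127514967-127517154), the paralogue of Ndufa4, had 19.7 to 26 scaled CPM in round spermatids (610 to 1069 counts). In sperm it had 3 counts in each of 2 HFD libraries and 0 in the other 4, a fitted log2 fold change of -5.41 (SE 0.68). Uqcrc1 had 0 to 8.7 in sperm (median 4.56) against 127 to 150 (median 135), a log2 fold change of -5.05 (SE 0.36). Ndufaf3 (chr9:108565537-108567434) had 4.69 to 17.4 against 110 to 147 (log2 fold change -4.04, SE 0.29). None of these ranges touched. Ndufs5 (-3.83, SE 0.39) and Uqcrb (-3.53, SE 0.25), accessory subunits of complexes I and III named after their values were seen, were also lower, and copies elsewhere cover 60.8% and 68.6% of their transcripts. Members with over 20% of the transcript copied gave 4 calls higher and 11 lower with a median log2 fold change of -1.22, and those with no copy 16 and 16 with a median of -0.15. The libraries of the 2 cell types also differ in read layout (single-end in sperm, paired-end in round spermatids), and the part of copies in the difference was not tested.

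The subunits of the F1 head did not move together. Atp5a1, the alpha subunit, was lower in sperm (7.44 to 22.3 against 102 to 116, log2 fold change -2.85, SE 0.20). Atp5b, with which it forms the catalytic sites, had 101 to 371 against 273 to 294 and did not pass the test (log2 fold change -0.14, SE 0.20), although by library totals it did (-1.12, adjusted p = 0.0203 by edgeR). Atp5c1 was called higher with TMM (28 to 83.3 against 40 to 44.6, log2 fold change 0.56, SE 0.20), but its log2 fold change was -0.49 by library totals.

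Markers of other cells moved with this comparison. Epididymal epithelium markers summed to 7777 to 44235 nuclear CPM in the sperm libraries and 0.724 to 1.2 in round spermatids, with Lcn8 at 0 in the HFD sperm libraries. Leukocyte markers summed to 1354 to 7157 in sperm and 5.26 to 9.95 in round spermatids. Most of the sperm sum was Cd52, which the epididymal epithelium also makes. The part of these markers in the difference was not tested. Of 17 tested cytochrome oxidase genes, 5 were called higher and 9 lower in sperm (median log2 fold change -1.70). Of the 13 protein genes of mtDNA, 8 were called higher and 5 lower (median 4.60). mt-Co2, mt-Co3, mt-Atp6, mt-Atp8 and mt-Nd4l were the 5 lower ones, with log2 fold changes from -9.93 to -5.25, beside mt-Cytb at 6.17. Only 8 of these 13 genes had enough counts to be tested for diet in sperm, and 7 in the 3 tissues, against 13 in morulae. Sperm reads are single-end and those of round spermatids paired-end. The part of read layout, or of copies elsewhere, in the 5 low values was not tested, so they are not read as lower transcript levels.

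Morulae against round spermatids gave 30 members called higher and 23 lower, against 31.2% of all genes higher and 55.4% lower. The members' median log2 fold change was 0.29 and that of all genes -1.36. The split was 14 and 21 by library totals (25.3% and 55.5% of all genes) and 38 and 17 when TMM used nuclear genes only (34.6% and 51.3%). It was 28 and 27 with DESeq2 size factors (29.6% and 57.2%) and 43 and 23 in the LFD libraries alone (31.8% and 55.7%). The members lay 1.51 to 1.89 above the median of all genes in these settings. Complex V subunits gave 10 calls higher and 2 lower, complex I 12 and 12, complex III 4 and 3, and complex II 0 and 1. Of the 79 members, 16 were called higher and 18 lower both in sperm and in morulae. Both comparisons use the same round spermatid libraries, so the counts are not independent. The share of all genes called in both was not computed, so these joint counts are not read as a result about the members.

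Atp5b had 1400 to 1664 scaled CPM in morulae (median 1476) and 273 to 294 in round spermatids (median 281), a log2 fold change of 2.41 (SE 0.21, adjusted p = 1.97e-09). Atp5c1 rose alongside it at 178 to 213 against 40 to 44.6 (log2 fold change 2.23, SE 0.21), and Atp5a1 by less at 177 to 213 against 102 to 116 (0.81, SE 0.18). The 3 genes did not overlap between the cell types.

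Among the members called higher in morulae without overlap, Ndufa4, Ndufaf4 and Ndufb11 had the highest log2 fold changes. Ndufa4 had 39 to 46.3 against 1.18 to 1.78 (log2 fold change 4.89, SE 0.25). Ndufaf4, a complex I assembly factor (chr4:24898083-24905001), had 22.1 to 34.6 against 1.16 to 1.71 (4.28, SE 0.39). Ndufb11 had 13.9 to 19.1 against 0.903 to 1.21 (3.96, SE 0.41). Ndufa1, the other X-linked member, had 9.32 to 12.6 against 1.58 to 2.06 (2.54, SE 0.25), so that both X-linked members were higher in morulae in every library.

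Among those called lower without overlap, Ndufa4l2, Ndufaf3 and Uqcrq had the lowest. Ndufa4l2 had 3 and 4 counts in 2 morula libraries and 0 in the other 4, against 610 to 1069 counts in round spermatids. Ndufaf3 had 1.16 to 2.92 against 110 to 147 (log2 fold change -6.24, SE 0.30), and Uqcrq 14.4 to 17.7 against 92 to 120 (-2.76, SE 0.30). Assembly factors of complex I therefore lay at both ends, Ndufaf4 higher and Ndufaf3 lower. Core subunits also fell, with Uqcrc1 at 18.9 to 30 against 127 to 150 (-2.52, SE 0.28) and Ndufv2 at 17.8 to 26.4 against 111 to 127 (-2.47, SE 0.36). Of 17 tested cytochrome oxidase genes 8 were called higher and 6 lower (median 0.39), and all 13 protein genes of mtDNA were higher (median 4.89).

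**Figure D4:**
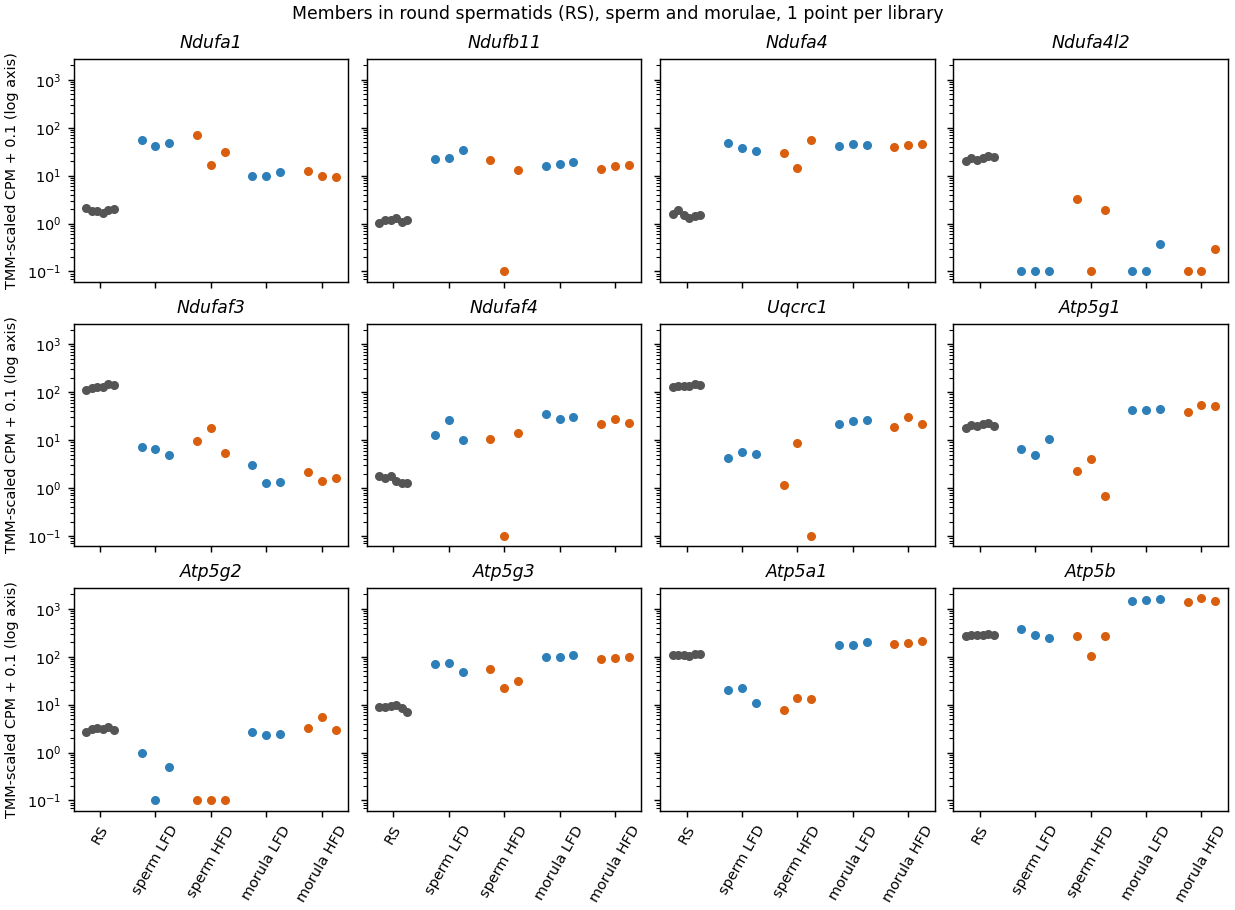
Level of 12 members in each round spermatid, sperm and morula library, as TMM-scaled CPM plus 0.1 on a log axis, with round spermatids in grey, LFD in blue and HFD in orange. Ndufa4 and Ndufa4l2 lie on opposite sides (1.18 to 1.78 and 19.7 to 26 in round spermatids), and Atp5b in morulae lies at 1400 to 1664.

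The pair Ndufa4 and Ndufa4l2 exchanged places between round spermatids on one side and sperm and morulae on the other. Per kilobase, Ndufa4l2 made up 94.2 to 96.2% of the pair in round spermatids, 0 to 11.9% in sperm and 0 to 0.814% in morulae. The summed counts of sperm are low, so its 3 counts set the upper end there. Translated from the annotation's coding sequences, the proteins have 82 and 87 residues and share 62.2% of the shorter one.

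The c ring of ATP synthase, through which protons pass, is encoded by 3 genes with different targeting peptides. Translated proteins have 136 (Atp5g1), 146 (Atp5g2) and 141 (Atp5g3) residues, with the last 78 residues identical in all 3. Atp5g3 took 99.6 to 100% of the counts of the trio in gastrocnemius, 98.6 to 99.7% in eWAT and 97.9 to 99.9% in liver. In the 3′ counts of Atp5g2 this share is bounded by its copies, as above. For Atp5g1, copies cover 37% of the last 300 bases of the transcript. In round spermatids, per kilobase, Atp5g1 held 39.3 to 45.3%, Atp5g2 16.9 to 19.4% and Atp5g3 35.3 to 43.7%. By counts, without the length, Atp5g1 held 61 to 67% there. In sperm Atp5g3 held 90 to 99.1% per kilobase and in morulae 74.9 to 82.2%, with Atp5g1 at 15.5 to 19.5% in morulae. By counts, Atp5g3 held 81.1 to 98.1% in sperm and 60.8 to 69.2% in morulae, with Atp5g1 at 29.3 to 35.7% in morulae.

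In scaled CPM the rise of Atp5g3 over round spermatids was 2.54 on the log2 scale in sperm (SE 0.24, 22.2 to 73 against 6.93 to 9.83) and 3.49 in morulae (SE 0.24, 88.2 to 106). Atp5g1 fell in sperm by 1.97 on the log2 scale (SE 0.31, 0.599 to 10.5 against 18.1 to 22.3) and rose in morulae by 1.17 (SE 0.26, 38.1 to 55.1). Atp5g2 fell in sperm by 3.20 (SE 0.52), with 0 to 3 counts per library, and did not pass the test in morulae (2.24 to 5.34 against 2.64 to 3.28, log2 fold change 0.04, SE 0.28). Copies elsewhere cover 100% of the Atp5g2 transcript, 12.9% of that of Atp5g1 and 0% of that of Atp5g3. Read layout also differs between sperm and round spermatids. The part of either in these values, or in the shares above, was not tested. Of the promoters printed above, those of Atp5g2 and Atp5g3 hold the NRF1 letters and that of Atp5g1 does not.

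Diet was compared in sperm to ask whether the HFD changed the members' transcripts in the gametes. None of the 65 tested members passed the adjusted threshold, nor did any of all 8643 tested genes (0%), and the lowest adjusted p of a member was 0.232. At an unadjusted p under 0.05 there were 2 members, against 13% of all genes. In 10 members the HFD and LFD libraries did not overlap, against 20.4% of all genes. DESeq2 called 286 genes and no member, and limma-voom 0 genes. The median log2 fold change of the members was -0.31 (HFD over LFD) and that of all genes -0.07.

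By complex the medians were -0.18 for complex I subunits, -0.35 for complexes II and III, and -0.41 for complex V, none with a called member. Summed over all 79 members, the level in nuclear CPM was 3966, 1248 and 2801 in the HFD libraries of 2994295, 3679276 and 4062321 total counts, and 5164, 4719 and 4207 in the LFD libraries of 2560219, 2913166 and 3050543. The HFD libraries were lower in this sum of nuclear CPM without overlap, and spread over a wider range than the LFD libraries. The sum was not tested, and it was not formed with TMM scaling. Under TMM, 49 of the 65 tested members had a log2 fold change below 0 and 16 above 0, and 10 did not overlap. Without the HFD library of 2994295 counts the median log2 fold change of the members was -0.70. By library totals, which include the mtDNA counts, 31 members were called lower in HFD, against 37.8% of all genes, with a members' median of -2.09, and all genes moved with them, the members lying -0.27 from the median of all genes.

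Other measures separated the diets in these libraries. The share of mtDNA counts was 78.1 to 84.3% in HFD and 43.5 to 64.7% in LFD. All 8 tested protein genes of mtDNA were higher in each HFD library than in any LFD library (median log2 fold change 2.24) without passing the adjusted threshold. Leukocyte markers summed to 1354 to 3777 nuclear CPM in HFD and 4437 to 7157 in LFD, and most of it was Cd52 (1117 to 3417 and 4125 to 6838), which the epididymal epithelium also makes, while Ptprc lay at 14.3 to 83.2 and 14.5 to 44.5. Epididymal markers summed to 7777 to 13162 in HFD and 8247 to 44235 in LFD, and spermatid and sperm markers to 14512 to 27739 and 5030 to 16516. Their part in the values of the members was not tested.

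The single gene with the lowest p was Ndufaf8, a complex I assembly factor (chr11:120098928-120100705), with 0 counts in the 3 HFD libraries and 12, 33 and 13 in the LFD libraries. A count of 0 in all HFD libraries allows up to 3 counts over the group, or 0.493 scaled CPM. The pooled LFD level of 3.67 was 7.45-fold above this limit, a bound of counting error only. Of the 58 LFD counts, 33 came from 1 library. Ndufaf8 passed the filter on low counts through the LFD libraries alone, so the bound is not read as a diet difference. With TMM on nuclear genes it was not among the 64 members tested. Its adjusted p was 0.232 by edgeR, and it did not pass the test. Its sperm level is low in both diets, while round spermatids had 317 to 535 counts. The member with the highest log2 fold change was Ndufb3, an accessory subunit of the membrane arm, with 15.5, 11.1 and 6.88 scaled CPM in HFD and 2.72, 4.75 and 3.16 in LFD (1.64, SE 0.76, adjusted p = 0.384 by edgeR). The HFD values were above the LFD values in every library, within the limits of an unadjusted p of 0.0496.

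Ndufaf3 (log2 fold change 1.01, SE 0.85) and Ndufaf5 (0.74, SE 1.26) came next on the HFD side, both with overlapping groups. On the LFD side, Atp5g1 had 1.29, 2.46 and 0.344 in HFD and 3.33, 2.49 and 5.68 in LFD (-1.55, SE 1.04), and Ndufab1, the acyl carrier protein, 1.29, 1.23 and 2.41 against 6.66, 3.16 and 3.79 (-1.41, SE 0.93). Their groups did not overlap, and neither passed the test. Sdhc, a membrane anchor of complex II, had 12.3, 3.07 and 6.88 against 15.1, 16.5 and 14.7 (-1.06, SE 0.67), while Ndufs8, a core subunit with iron-sulfur clusters, had 11.6, 11.1 and 15.8 against 9.23, 8.36 and 7.57 (0.62, SE 0.62). Members without overlap thus lay on either side with TMM. By library totals all 65 tested members had a log2 fold change below 0 (-7.45 to -0.11), as had 8067 of the 8643 tested genes. Ndufb3 was then at -0.11 and Ndufs8 at -1.11.

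Of the 3 members named first as higher in sperm than in round spermatids, Ndufa1 had 10.4 to 42 scaled CPM in HFD and 21.7 to 28.6 in LFD sperm, a log2 fold change of HFD over LFD of -0.13 (SE 0.57). For Ndufa4 it was -0.08 (SE 0.57) and for Atp5g3 -0.64 (SE 0.52). All 3 overlapped between the diets, and none passed the test. Atp5b had a log2 fold change of -0.30 (SE 0.49), with mean scaled CPM of 128 (SD 55.3, n = 3) in HFD and 158 in LFD. With standard errors of this size, differences of the same size and larger ones could go uncalled at the depth of these libraries. The log2 fold changes of the tested members ran from -6.87 to 1.64, and none was called. Nuclear counts were 471297 to 889679 in the HFD libraries and 1066801 to 1447186 in the LFD libraries.

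Morulae sired by HFD and LFD males were compared to ask whether a paternal diet moved the members in the embryo. None of the 77 tested members passed the threshold, nor did any of 13447 tested genes (0%), and the lowest adjusted p of a member was 0.729. The median log2 fold change of members was 0.01, equal to that of all genes. There was 1 member at an unadjusted p under 0.05, against 6.38% of all genes, and 7 members did not overlap, against 12.1%. DESeq2 called 9 genes and no member, and limma-voom 0 genes. Medians by complex ran from -0.07 in complex III to 0.04 in complex I, and the summed level in nuclear CPM was 5993, 6370 and 6393 in HFD and 5903, 6092 and 6261 in LFD, which overlap. The sum over complex I subunits alone did not overlap in nuclear CPM, at 1233, 1213 and 1349 in HFD and 1169, 1167 and 1197 in LFD. As CPM of all counts it did overlap, at 915, 887 and 1028 in HFD and 872, 862 and 925 in LFD. The separation thus depended on the total used, and these sums were not tested.

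The member with the lowest unadjusted p (0.0269) was Ndufs3, a core subunit, at 32.1, 38.7 and 43 scaled CPM in HFD and 34.6, 26.2 and 24.4 in LFD (log2 fold change 0.42, SE 0.17, adjusted p = 0.729 by edgeR). One LFD library lay within the HFD range, and 84.1% of its transcript has a copy elsewhere. The largest log2 fold changes were 0.66 (SE 0.40) for Atp5g2, with 3.7, 6.36 and 3.41 against 3.1, 2.66 and 2.77, and -1.10 (SE 0.55) for Sdhaf4, a complex II assembly factor with 1.18, 1.59 and 0.952 against 1.77, 3.26 and 2.93. Sdhaf4 rested on 12 to 38 counts per library. Neither overlapped between the diets, and neither passed the test.

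Ndufa7 (0.39, SE 0.22) and Ndufa2 (-0.46, SE 0.22), accessory subunits of complex I, also did not overlap between the diets, and Ndufaf5 (-0.35, SE 0.31) did. Atp5b had 1676, 1982 and 1722 in HFD and 1700, 1788 and 1854 in LFD (0.01, SE 0.08), the narrowest of these values. Within the c ring, Atp5g3 held 74.9 to 80.8% per kilobase in HFD and 81.4 to 82.2% in LFD morulae, ranges that do not overlap, but Atp5g3 itself had a log2 fold change of -0.09 (SE 0.10). Of 13 tested cytochrome oxidase genes and 13 protein genes of mtDNA, 0 were called, with medians of -0.11 and 0.03.

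**Figure D5:**
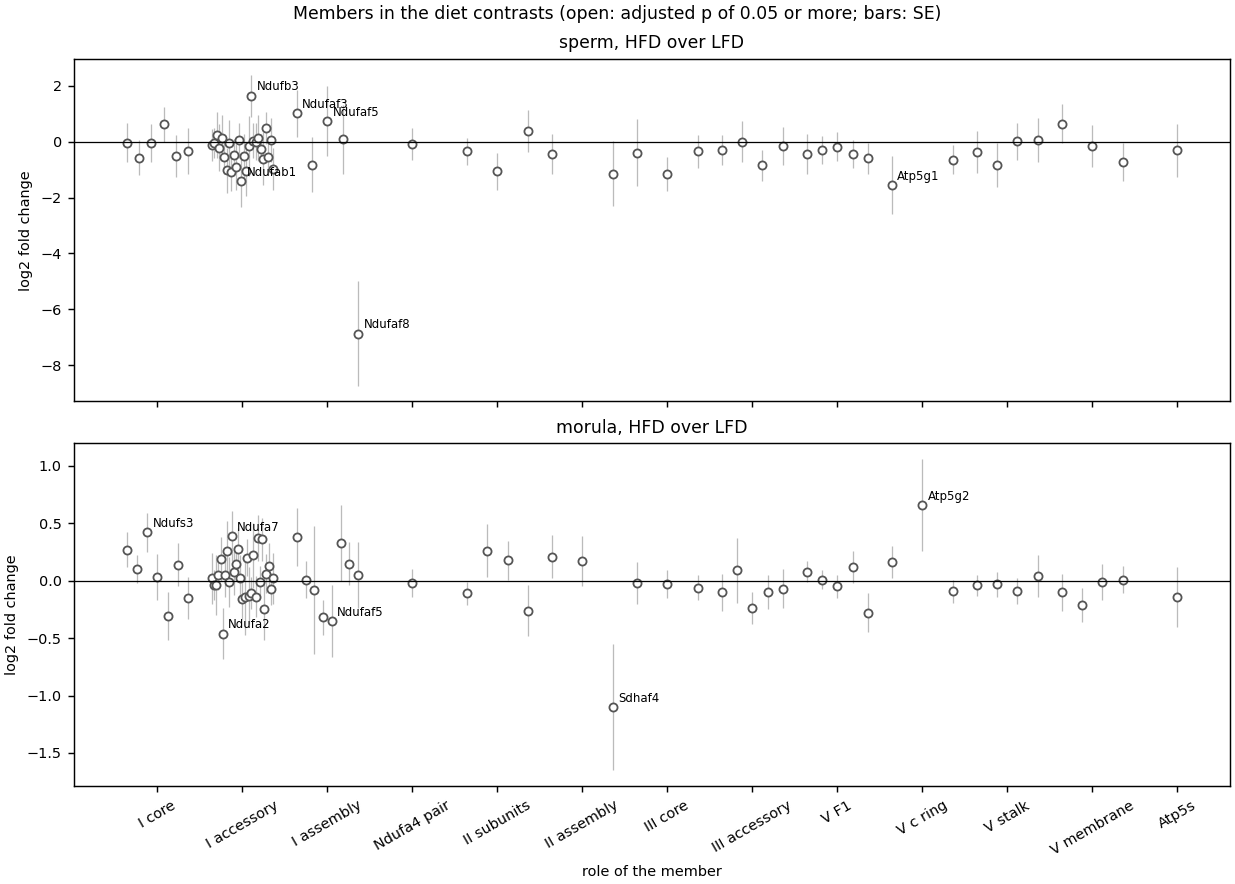
Log2 fold change of HFD over LFD for each tested member by role, in sperm (65 members) and morulae (77 members), with bars of 1 standard error. All points are open because no member passed an adjusted p of 0.05; the sperm values spread from -6.87 (Ndufaf8, at 0 in HFD) to 1.64, the morula values from -1.10 to 0.66.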

How the data were processed

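The authors' pipeline (the Artificial Intelligence RNA-Seq software) used BBDuk for trimming, STAR for alignment against GRCm38 and featureCounts for counting, and its raw counts per gene were deposited. Tool versions are not given in the sources used here. The whole-number counts were used as deposited.

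Tests ran in edgeR 4.0.16 (R 4.3.3) by its quasi-likelihood method, two-sided, on genes kept by filterByExpr (at least 10 counts) and scaled by TMM. A call was an adjusted p under 0.05 (Benjamini-Hochberg, over all genes tested). There were 7 comparisons in 4 fits: sperm diet, morula diet, the 3 tissues together, and round spermatids, sperm and morulae together. DESeq2 1.42.0, limma-voom (limma 3.58.1), other scalings, no filter, LFD libraries alone, a replicate block and leaving out each library were alternatives. The fits were tested on simulated data. Named were catalytic core members, paralogues, the 3 highest and 3 lowest called members per comparison whose groups do not overlap (where none was called, of all tested), members at 0 in a cell type, and members at 5 times the next cell type. Columns of round spermatids and offspring tissues were assigned to the cell type named by their table, and marker lists were checked; no other property of those samples was used. Copies were searched with blastn among the annotation's transcripts. Members, lists and tests were chosen with earlier results of these data known. 1 member is counted in the sums and is not reported here by itself. Intervals and limits at 0 cover counting error only.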

Additional observations from a re-analysis of the deposited data

Results flagged for a closer look

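Of 144 values screened (member levels, complex sums and shares within each group of 6 libraries), 10 had a highest or lowest library whose gap to the nearest other library, as a share of the group's range, exceeded the critical ratio of 0.625; chance alone flags about 1 in 20 groups. In gastrocnemius the library of 935991 counts was the highest in 5 of them: the summed Ndufa4 pair (198 nuclear CPM, next 98.2, ratio 0.683), and, in scaled CPM, Atp5b (738, next 486, ratio 0.631), Atp5f1 (686, next 415, ratio 0.673), Sdhc (368, next 199, ratio 0.737) and Uqcrfs1 (661, next 401, ratio 0.686). The share of Atp5g2 in the c ring was 0.0765% in the gastrocnemius library of 1803083 counts and 0 in the others (ratio 1), which is a single count.

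In eWAT the library of 1338149 counts was the lowest for the summed complex II subunits (552 nuclear CPM, next 623, ratio 0.63) and the highest for the share of Atp5g2 (0.685%, next 0.173%, ratio 0.747), again on 1 count. In liver, Sdhb was lowest in the library of 2347546 counts (116 scaled CPM, next 160, ratio 0.798). In round spermatids Uqcrc2 was lowest in the library of 20138842 counts (26.1, next 28.7, ratio 0.626). Of the 65 members tested for diet in both sperm and morulae, none had diet differences in opposite directions with every library on its own side.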

How the results depend on the processing

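Scaling moved most of what moved. By library totals, members called lower numbered 31 in sperm diet (median log2 fold change -2.09), 2 in gastrocnemius over liver, 4 in gastrocnemius over eWAT (median 0.92) and 11 in eWAT over liver, with 16 higher (median 0.10). Members called higher numbered 6 in sperm over round spermatids (median -1.50) and 14 in morulae over round spermatids (median -0.03). Some named results called with TMM or by library totals had the opposite sign by library totals. Their log2 fold changes by library totals were -0.03 for Sdha in gastrocnemius over eWAT, and -0.49 for Atp5c1 and -0.56 for Ndufs7 in sperm over round spermatids. In eWAT over liver they were 0.36 for Atp5b, 0.59 for Atp5c1, 0.11 for Atp5e, 0.03 for Ndufs8, 0.20 for Ndufv1 and 0.40 for Sdha. Named results without a call under either scaling also changed sign, among them Ndufb3 (-0.11), Ndufaf3 (-0.89), Ndufaf5 (-1.04) and Ndufs8 (-1.11) in sperm diet. With TMM on nuclear genes, the median was 2.00 in gastrocnemius over eWAT, -0.96 in eWAT over liver, -0.03 in sperm and 0.56 in morulae over round spermatids, and 2 members were lower in gastrocnemius over liver. That last count was 3 with DESeq2, 3 without the shallowest gastrocnemius library and 0 without the second shallowest (both chosen after seeing the data). The median in morulae over round spermatids was 0.11 with DESeq2 size factors, 0.11 with DESeq2 and 0.44 with LFD libraries alone, and in gastrocnemius over eWAT 1.75 without the filter on low counts. As CPM of all counts, mtDNA included, the summed members had medians of 13022 in gastrocnemius, 6750 in eWAT, 6850 in liver, 3696 in round spermatids, 1056 in sperm (613 HFD, 1728 LFD) and 4578 in morulae (4656 HFD, 4500 LFD). The cause was not tested beyond the scalings themselves.

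Leaving out each library in turn, 0 members were called for diet in sperm and in morulae, and the members' median ranged from -0.70 to -0.18 in sperm and -0.03 to 0.02 in morulae. With the replicate block on the column numbers shared by sperm libraries (1000 and 4000), 0 members and 2 of all genes were called. Deviations of same-numbered libraries correlated at 0.105 and -0.15. With so few pairs this cannot tell whether the number marks anything shared beyond itself. Morula numbers are not shared between diets, and the numbers of the tissue columns are not shared between tissues. In sperm diet, 12 of the named results gained a call by library totals. Low nuclear depth of sperm and of 1 gastrocnemius library (369772 counts) limits the lowest members most.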

Other observations

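The assembly factors, which help build a complex without staying in it, followed no common direction between the germline and the embryo. Of the 4 factors of complex II, Sdhaf3 rose in morulae over round spermatids (8.08 to 9.58 against 1.04 to 1.32 scaled CPM, log2 fold change 2.90, SE 0.33) and Sdhaf4 fell (0.798 to 2.75 against 7 to 8.31, -2.23, SE 0.44), both without overlap. Among those of complex I, Ndufaf6 rose with Ndufaf4 (3.44 to 5.34 against 0.225 to 0.444, 3.72, SE 0.31). Atp5s, which is named after ATP synthase but is not counted among its subunits here, fell in morulae (5.63 to 10.2 against 21.7 to 25.6, -1.46, SE 0.36) and was not called in sperm (1.8 to 29, log2 fold change -0.78, SE 0.38). In gastrocnemius over liver, Ndufaf4 had overlapping levels (74.5 to 110 against 63.6 to 114, log2 fold change 0.09, SE 0.16), whereas Ndufaf6 rose (36.5 to 59.9 against 14.9 to 29.2, 1.15, SE 0.20). These genes were chosen after their values were seen.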
